A study of Mus musculus with 4 samples.

Results

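The secreted Wnt inhibitors read here are the 9 genes Sfrp1, Sfrp2, Sfrp4, Sfrp5, Frzb, Wif1, Dkk1, Dkk2 and Dkk3. They were found as all probe sets that the array annotation assigns to one of these genes alone, which gave 17 of 45037 probe sets. The family was chosen by the intensities of these same arrays, in which Sfrp2 and Sfrp4 were lower with retinoic acid (RA) while the other members were not or less so. The differences between RA and vehicle in the 9 genes are therefore a description, and no test is given for them. The samples were gonocytes, the male germ cells present in the testis around birth, of mice aged 2 days post partum. Cells carrying the surface protein THY1 had been collected by magnetic sorting (MACS) and cultured for 8 h without serum, growth factors or feeder cells. The 2 vehicle samples received ethanol and the 2 RA samples 100 nM RA, a form of vitamin A whose receptors are transcription factors in the nucleus. The labels give no strain, and they do not say whether samples of a group came from separate animals or cultures, so the spread between them may be technical.

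Wnt proteins are secreted signals that bind Frizzled receptors and the coreceptors Lrp5 and Lrp6 and so stabilise beta-catenin, which then acts on gene transcription with Tcf and Lef factors. Sfrp proteins and Frzb carry a domain related to the Wnt-binding part of Frizzled and bind Wnt proteins outside the cell, as Wif1 does with a domain of another kind. Dkk1 and Dkk2 act on the other side, by binding Lrp5 and Lrp6, while Dkk3 is a divergent relative that does not share this activity. Such inhibitors are often made by the mesenchymal cells of a tissue.

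The promoters of 6 members were found in RefSeq (build GRCm38.p6), those of Sfrp2, Sfrp5, Frzb, Wif1, Dkk1 and Dkk2. The 250 bases before the start site are shown for Sfrp2, the member with both the lower signal and a promoter entry, and for Frzb, a family member whose groups overlapped. Sequences run 5' to 3' on the gene's strand, and capitals mark CpG dinucleotides. The Sfrp2 stretch is chr3:83766071-83766320 on the plus strand and the Frzb stretch chr2:80447397-80447646 on the minus strand.
Sfrp2: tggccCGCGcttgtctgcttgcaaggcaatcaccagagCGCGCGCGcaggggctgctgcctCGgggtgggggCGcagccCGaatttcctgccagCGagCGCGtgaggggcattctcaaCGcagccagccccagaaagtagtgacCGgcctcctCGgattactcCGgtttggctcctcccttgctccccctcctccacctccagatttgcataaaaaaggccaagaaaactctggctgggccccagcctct
Frzb: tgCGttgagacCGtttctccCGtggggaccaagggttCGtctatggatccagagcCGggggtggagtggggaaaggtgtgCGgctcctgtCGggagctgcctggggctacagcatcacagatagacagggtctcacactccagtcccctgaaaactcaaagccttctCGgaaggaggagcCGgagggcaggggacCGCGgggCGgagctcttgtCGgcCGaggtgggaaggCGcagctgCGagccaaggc
Each of these stretches held 16 CpG dinucleotides, where the median of 32851 promoters was 6. Their GC content was 63.6% for Sfrp2 and 64.4% for Frzb, against a median of 52.4%. RA receptors bind direct repeats of a hexamer, so 3 such hexamers were searched on both strands of the whole window of 300 bases, which also holds 50 bases after the start site. These were AGGTCA, a variant with T in place of the inner G, AGTTCA, and a variant with G as its opening letter, GGGTCA. They were searched alone and as direct repeats in any combination, with a spacing of 1, 2 or 5 bases, so each repeat also counts as a match of its hexamers. No member promoter held a repeat with spacing 1, 2 or 5, as did 0.195%, 0.0883% and 0.0731% of all promoters. The single hexamer AGGTCA was found in 1 of the 6, that of Frzb, against 16.3% of all promoters. This match lies on the opposite strand in the 50 bases after the start site, outside the stretch shown. GGGTCA was found in 3, those of Wif1, Dkk1 and Sfrp5, against 13.7% of all, and AGTTCA in 0, against 14% of all. Of the Tcf and Lef type motifs, CTTTGAA and CTTTGTT were each found in Dkk1 only among the 6 and in 5.14% and 5.85% of all promoters, while CTTTGAT and CTTTGTA were in 0 of the 6 and in 3.73% and 3.63% of all. The Sfrp2 promoter window held none of these letters.

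The treatment itself was visible in the RA target genes Stra8, Cyp26a1 and Rarb, whose groups did not overlap and whose log2 differences were 3.35, 3.08 and 2.69. The trimmed mean intensity was 125 on each of the 4 arrays. All 10 measured germ cell markers were above the signal filter, which 13011 of 18193 genes passed. So were 12 of 12 markers of stromal fibroblasts, 7 of 7 of peritubular smooth muscle and 11 of 11 of endothelium. Of Sertoli, macrophage and mast cell markers, 6 of 8, 8 of 10 and 6 of 7 passed. Passing does not itself show a cell type. The fibroblast marker Pdgfra (927 to 1371) and the smooth muscle marker Acta2 (2059 to 3339) read far above the filter. RNA of other testis cells may thus have been present, which was not tested. Over 27022 probe sets above the filter, 0 passed an adjusted p of 0.05 in limma (0.00%), and 743 had an unadjusted p under 0.05 (2.75%).

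Of the 17 member probe sets, 11 passed the filter on low signal. Log2 differences below are of log2(intensity + 5), RA minus vehicle, with the standard error of the fit over all probe sets. In 4 of the 17 the RA arrays both read lower than either vehicle array, namely 2 of Sfrp1 and those of Sfrp2 and Sfrp4, against 16.0% of all probe sets. In 2 of the 17, both of Dkk3, the RA arrays both read higher than either vehicle array, against 12.4% of all probe sets. The groups overlapped in the remaining 11.

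**Figure D1:**
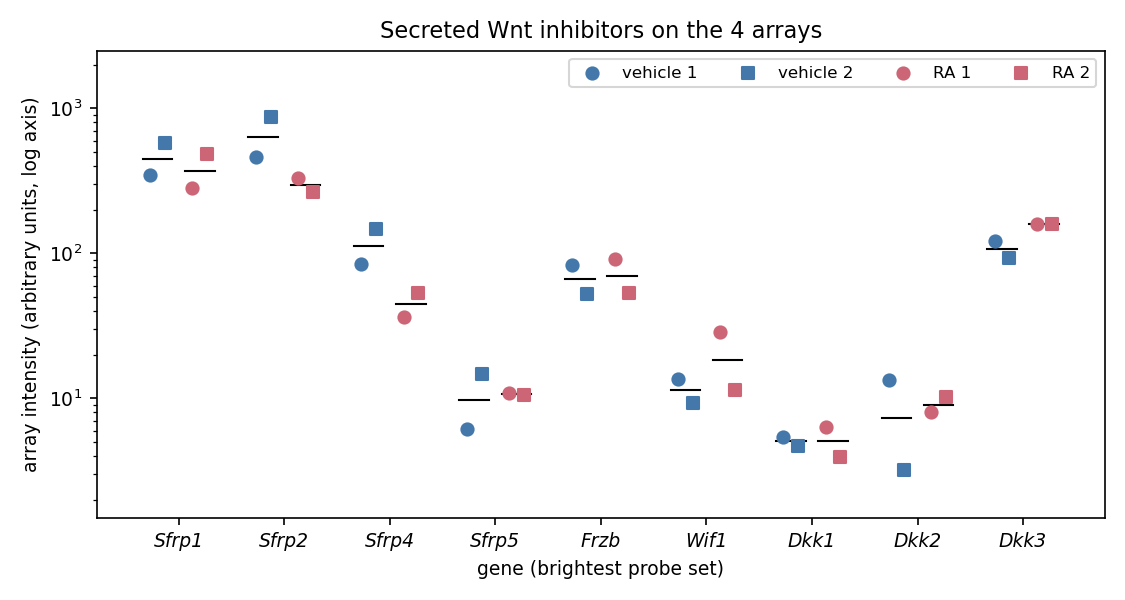
Array intensity (log axis) of the brightest probe set of each of the 9 genes, with 1 point per array and a black line at the group mean of the log2 values; circles are arrays numbered 1 and squares arrays numbered 2. Both RA points lie below both vehicle points for Sfrp2 and Sfrp4 and above them for Dkk3, and the groups overlap for the other 6 genes; levels of different genes cannot be compared on this axis.

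Sfrp4 is a secreted Wnt-binding protein. Its only probe set, 1451031_at, gave intensities of 84.4 and 147 in the vehicle samples and of 36.6 and 53.7 in the RA samples. Both RA arrays were below both vehicle arrays, by 2.36-fold on average (log2 difference −1.24 ± 0.34, SE, n = 2 per group). Between arrays of the same number the log2 difference was −1.10 for number 1 and −1.37 for number 2, so both gave a similar size. With 1 array left out it lay between −1.62, without vehicle replicate 1, and −0.86, without vehicle replicate 2.

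Sfrp2, a relative with the same kind of Wnt-binding domain, also had 1 probe set, 1448201_at. It read 460 and 877 with vehicle and 332 and 265 with RA. The groups did not overlap, and the mean level was 2.12-fold lower with RA (log2 difference −1.08 ± 0.31, SE, n = 2 per group). Unlike for Sfrp4, the size rested unevenly on the arrays: it was −0.46 between the arrays numbered 1 and −1.71 between those numbered 2, where the vehicle array was the brightest of the 4 and the RA array the dimmest. Without vehicle replicate 2 the log2 difference was −0.62, and without vehicle replicate 1 it was −1.55.

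Sfrp1, the member with the most probe sets, gave differences of unequal size on its 5 probe sets, each with a negative mean over the 4 arrays. The sign did not hold throughout for 3 of them: 1416594_at stood at 0.0122 with arrays scaled to equal medians, at 0.0851 without vehicle replicate 1 and at 0.115 without RA replicate 2, where 1438620_x_at stood at 0.037. The brightest, 1428136_at, read 345 and 576 with vehicle and 281 and 485 with RA. These groups overlapped, and the log2 difference was −0.27 ± 0.33 (SE, n = 2 per group). The value turned to 0.10 without vehicle replicate 2 and to 0.12 without RA replicate 1. Within each number the RA array was nevertheless the lower one, by −0.29 and −0.25. The probe set 1448395_at read 200 and 254 against 150 and 180, with no overlap and a log2 difference of −0.44 ± 0.23. The probe set 1460187_at read 46.8 and 105 against 33.3 and 31.7, also with no overlap and with a log2 difference of −1.01 ± 0.39, close in size to that of Sfrp2. As for Sfrp2, most of this came from the arrays numbered 2, at −1.59 against −0.44 for number 1. The other 2 probe sets of Sfrp1 overlapped, with log2 differences of −0.06 and −0.29. The annotation used here does not place the probes on the transcript, so which part or form of the Sfrp1 RNA each probe set reads is not analysed here.

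Frzb, also known as Sfrp3, showed no separation of the groups. The brighter of its probe sets, 1416658_at, read 83.5 and 52.2 with vehicle and 92.0 and 53.0 with RA, a log2 difference of 0.08 ± 0.36. Its direction turned to −0.24 without vehicle replicate 2 and to −0.30 without RA replicate 1. The other probe set, 1448424_at, read 27.5 and 25.8 against 26.4 and 16.6 (−0.28 ± 0.32). For both, each array numbered 2 was dimmer than the array numbered 1 of its group, and RA minus vehicle was 0.13 and −0.05 for number 1 and 0.02 and −0.51 for number 2.

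Dkk3, the divergent member of the Dickkopf family, lay in the opposite direction to Sfrp2 and Sfrp4. Its brighter probe set, 1417312_at, read 123 and 93.0 with vehicle and 158 and 159 with RA. The RA arrays were both above the vehicle arrays, by 1.46-fold on average (log2 difference 0.55 ± 0.24, SE, n = 2 per group). With 1 array left out it lay between 0.36 and 0.74. On the other probe set, 1448669_at, the readings were 99.1 and 72.8 against 99.6 and 101. Here the groups were separated by a hair, since vehicle replicate 1 nearly equalled both RA arrays, and the log2 difference was 0.22 ± 0.26.

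The remaining 4 genes were not above the filter, and all their intensities lay between 0.417 and 28.8, near the background of the arrays, where ratios carry little information. Wif1 read 13.7 and 9.27 with vehicle and 28.8 and 11.4 with RA. Its groups overlapped, and the log2 difference of 0.53 became 0.0049 without RA replicate 1. Dkk1 read 5.40 and 4.72 against 6.32 and 3.94 on 1420360_at, and between 0.417 and 2.94 on 1458232_at. Dkk2 read 13.4 and 3.20 against 8.01 and 10.2, and Sfrp5 6.11 and 14.6 against 10.9 and 10.6 on 1436075_at. No direction can be read for these genes.

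**Figure D2:**
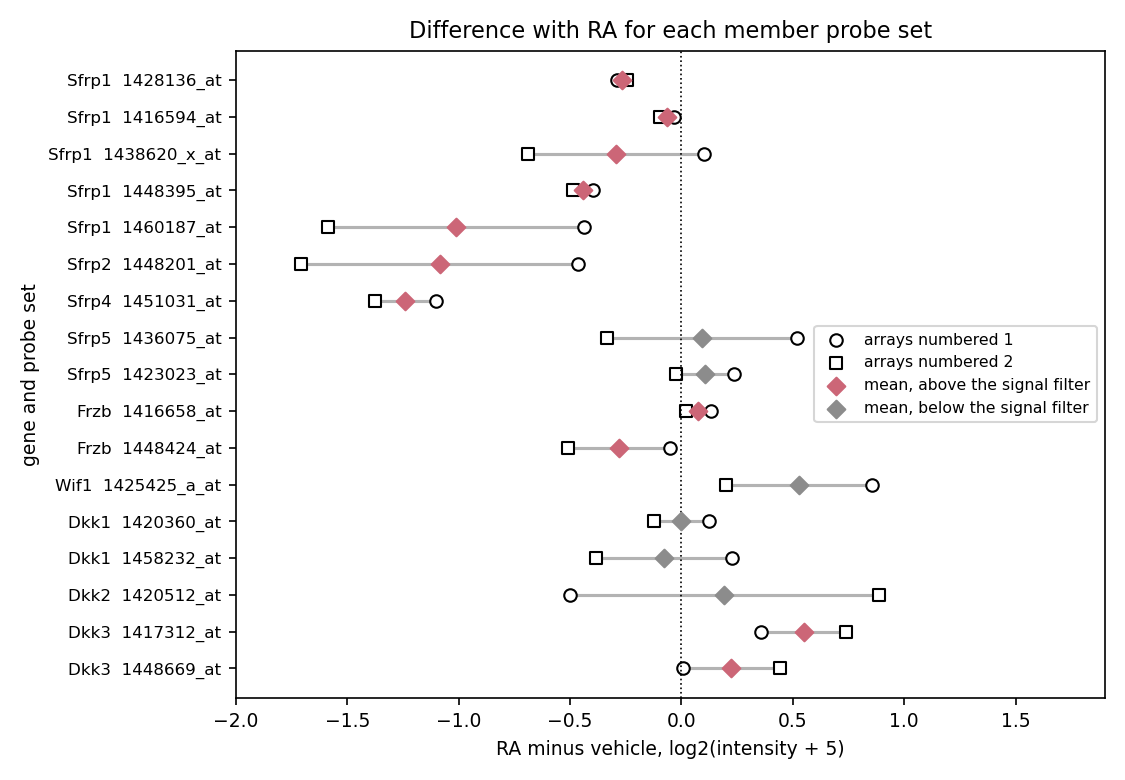
RA minus vehicle on the log2(intensity + 5) scale for each of the 17 probe sets, between the arrays numbered 1 (circles), between those numbered 2 (squares) and as the mean (diamonds, red where the probe set passed the signal filter). The pairs of points are close together for Sfrp4 (−1.10 and −1.37) and far apart for Sfrp2 (−0.46 and −1.71) and for the Sfrp1 probe set 1460187_at (−0.44 and −1.59).

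Read from the brightest probe set of each gene, Sfrp2 and Sfrp4 had a mean log2 difference of −1.16, a 2.24-fold lower level. The other 7 members ranged from −0.27, for Sfrp1, to 0.55, for Dkk3, with a median of 0.0907, which is the value of Sfrp5; 4 of these 7 were not above the filter and have no readable direction. The gap of −1.25 between the pair and this median is the contrast by which the family was picked. Leaving out vehicle replicate 1 gave −1.98 and leaving out vehicle replicate 2 gave −0.84, while leaving out RA replicates 1 and 2 in turn gave −1.19 and −1.38.

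Genes whose 4 readings, on the log2 scale and after taking off the gene's own mean, were closest to those of Sfrp2 and Sfrp4 were sought among 13010 genes above the filter by the straight-line distance. Sfrp4 itself was at rank 52 from Sfrp2 (distance 0.608), Sfrp2 at rank 58 from Sfrp4, and Sfrp1 at ranks 2092 and 573. Closest to Sfrp2 were Cd69, a surface protein of activated leukocytes, at a distance of 0.148, then Dpt, an extracellular matrix protein, Reep3, Cd55, an inhibitor of complement, and 3000002C10Rik. Dpt read 211 and 381 with vehicle and 125 and 112 with RA, with the same bright vehicle array as Sfrp2. Closest to Sfrp4 were Igf1os, Tenm4, a teneurin, Pid1, Ms4a7, a membrane protein of macrophages, and Vegfd, a growth factor of lymphatic vessels. Vegfd read 95.4 and 158 with vehicle and 54.0 and 67.2 with RA. All 10 of these genes were lower with RA, as their closeness to the pair requires, and 4 arrays allow many genes to share such a shape.

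Markers of the cells that may make these inhibitors were read beside them. In a bulk sample, fewer cells of a type and less RNA per cell cannot be told apart. The 12 stromal fibroblast markers, all above the filter, summed to 10388 and 13293 in the vehicle samples against 10296 and 12561 in the RA samples. The ratio of RA to vehicle was 0.991 for number 1 and 0.945 for number 2, while that of the Sfrp2 intensity was 0.722 and 0.302 and that of Sfrp4 0.434 and 0.365. Among the 12, Pdgfra, a receptor of mesenchymal cells, was higher on both RA arrays (log2 difference 0.28). This was by a hair, with 1314 on vehicle replicate 2 and 1318 on RA replicate 1. Of its further probe sets, 1 at 0.38 overlapped and 1 at 0.53 did not. Tcf21 and Postn, a transcription factor and a matrix protein of mesenchyme, were lower on both (−0.47 and −0.33). The margin of Tcf21 was small, with 410 on vehicle replicate 1 and 398 on RA replicate 2. Of the 12, 1 was thus separated with RA higher and 2 with RA lower, against 14.1% and 12.6% of all genes above the filter. The 9 other genes overlapped, among them Pdgfrb, a further receptor of such cells, and the collagen gene Col6a3, both at −0.30, and the transcription factor gene Nr2f2 at −0.48. The sum rests mostly on the bright collagen genes Col1a1 (0.03), Col1a2 (−0.02) and Col3a1 (−0.02). Gene by gene, 9 of the 12 had a negative difference, with a median of −0.19, where 47.1% of all genes above the filter were negative and their median was 0.0147.

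The 7 peritubular smooth muscle markers summed to 4978 and 4974 with vehicle and to 4960 and 6431 with RA, and the groups of the actin gene Acta2 (0.27) and the myosin gene Myh11 (0.15) overlapped. Germ cell markers (10 measured) summed to 9605 and 9188 against 9448 and 9985, with the helicase gene Ddx4 at −0.10 and the RNA-binding protein gene Dazl at −0.20. The summed markers of macrophages and of mast cells were lower with RA within both numbers, as Sfrp2 and Sfrp4 were, but single markers were not all so. The 10 macrophage markers, 8 of them above the filter, summed to 1032 and 2157 against 850 and 1738, a ratio of 0.824 and 0.806, with Adgre1 at −0.58 and Csf1r at −0.20; of the 8, 3 had a positive and 5 a negative difference. The 7 mast cell markers, 6 above the filter, summed to 3730 and 7816 against 2380 and 7341, a ratio of 0.638 and 0.939, with the protease genes Cma1 at −0.12 and Cpa3 at −0.36. All 6 had a negative difference, with a median of −0.58, although Cma1 was brighter on RA replicate 2 (2334) than on vehicle replicate 2 (2071). Ms4a2, a chain of the IgE receptor, read 23.0 and 74.9 with vehicle and 2.09 and 21.4 with RA (−1.79), with no overlap. It passed the filter through its vehicle readings. Its RA readings were near the background of the arrays, so this size carries little information. The protease gene Mcpt4 read 757 and 1487 against 397 and 749 (−0.95), also with no overlap and close to Sfrp2 in size. The part of these cells in the results was not tested.

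Markers of 3 further cell types were read. The 8 Sertoli cell markers, 6 of them above the filter with Amh and Fshr below it, summed to 1205 and 1427 against 1619 and 1540. Of the 6, 3 had a positive and 3 a negative difference, with Sox9 at 0.40, Dhh at −0.07 and the transcription factor gene Wt1 at 0.56. RA was higher with no overlap in 2 of them, Sox9 and Wt1, against 14.1% of all genes above the filter. The 4 measured Leydig cell markers summed to 1374 and 2495 against 1509 and 1978, with Star at 0.12 and Cyp11a1 at −0.13. Of the 4, 1 had a positive and 3 a negative difference, with a median of −0.20. Further probe sets of Star gave 0.25, with an overlap, and 0.54, with none. A further probe set of Cyp11a1 gave −0.34, with an overlap. The 11 endothelial markers summed to 460 and 393 against 485 and 551, with Pecam1 at 0.24 and Cdh5 at 0.13. Of these 11, 10 had a positive difference, where 47.1% of all genes above the filter were negative. In 4 of them, Tek (0.62), Robo4 (0.45), Tie1 (0.31) and Egfl7 (0.30), RA was higher with no overlap, against 14.1% of all genes above the filter. Tie1 read between 19.8 and 26.7, near the background, and further probe sets of Egfl7 gave 0.05, 0.21 and 0.50. Sertoli and endothelial sums were thus higher on both RA arrays, opposite to Sfrp2 and Sfrp4. The ratio of 3' to 5' signal of the control transcript Actb, a sign of RNA and amplification quality, was 1.72 and 1.73 in the vehicle samples against 2.08 and 2.32 in the RA samples, and that of Gapdh 1.56 and 1.47 against 1.85 and 2.00. Its part in the results was not tested.

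**Figure D3:**
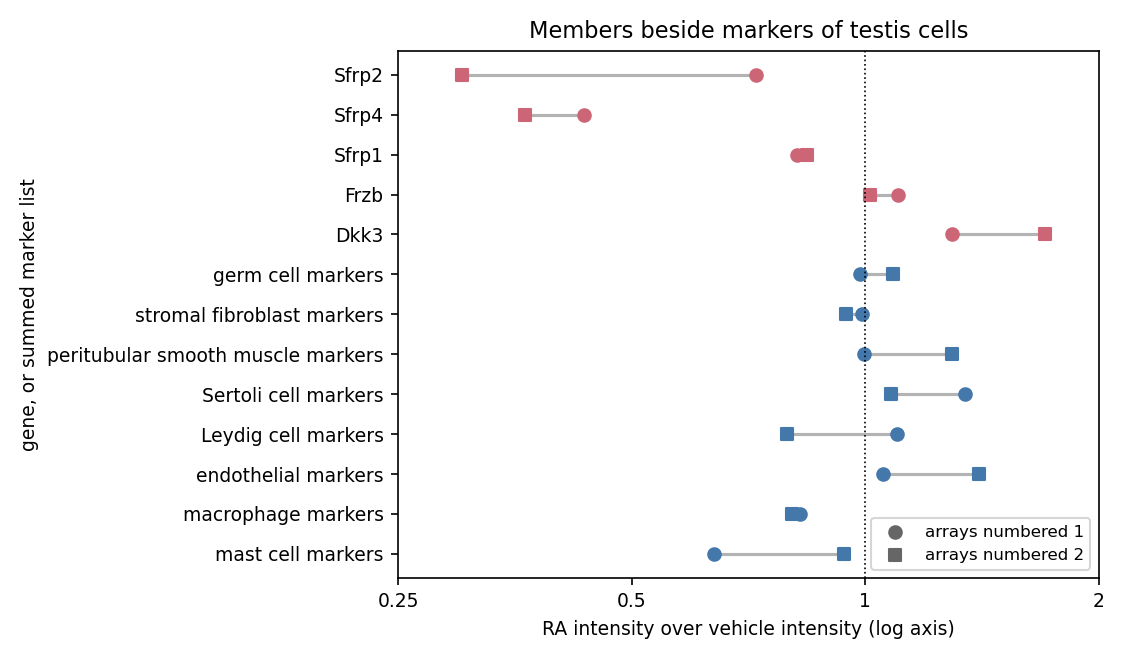
Ratio of RA to vehicle intensity (log axis) between the arrays numbered 1 (circles) and those numbered 2 (squares), for the 5 member genes above the filter (red) and for the summed markers of 8 cell types (blue). Sfrp4 (0.434 and 0.365) and Sfrp2 (0.722 and 0.302) lie to the left of the stromal fibroblast sum (0.991 and 0.945), and Dkk3 (1.29 and 1.71) lies to the right of it. The macrophage sum (0.824 and 0.806) and the mast cell sum (0.638 and 0.939) also lie left of 1. For number 1 the mast cell sum lies left of Sfrp2.

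The rest of the Wnt pathway was read from 6 lists with 101 genes, of which 99 were measured and 74 were above the filter. In limma 0 of the 74 passed an adjusted p of 0.05, and 2, Wnt4 and Rspo2, had an unadjusted p under 0.05. That is a share near the 2.75% of all probe sets above the filter. The groups did not overlap in 21 of the 74, with RA higher in 11 (14.9%) and lower in 10 (13.5%), against 14.1% and 12.6% of the 13011 genes above the filter. These shares are near the background. The median log2 difference was 0.031 over the 74 and 0.0147 over all genes.

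Of the 21 ligands and secretion factors, 10 were above the filter. Wnt4, a ligand made by somatic cells of the gonad, read 36.4 and 36.9 with vehicle and 73.8 and 71.2 with RA. The readings within each group were nearly equal, and the level was 1.86-fold higher with RA (log2 difference 0.90 ± 0.27, SE, n = 2 per group; limma, adjusted p = 1.0 over all probe sets). A further probe set of Wnt4 gave 0.98, also with no overlap, and with 1 array left out the value stayed between 0.87 and 0.92. Wnt9a was the other ligand with separated groups, at 0.07 ± 0.25. Porcn, which adds the lipid that Wnt proteins need for secretion, stood at −0.27 ± 0.33, and Wls, which carries them to the cell surface, at −0.25 ± 0.33. The median of the 10 was −0.038, and 0.0387 with equal array medians.

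Among the receptors and coreceptors, 18 of 20 measured were above the filter, 13 with a positive and 5 with a negative difference and a median of 0.13. This split did not hold: it was 9 and 9 with a median of −0.0062 when all probe sets of a gene were averaged, and 9 and 9 with −0.0045 without RA replicate 1. Groups were separated in 7, higher in 4 and lower in 3, against 14.1% and 12.6% of all genes above the filter. Fzd2, a Frizzled receptor, read 433 and 465 against 245 and 376 (−0.55 ± 0.24), with −0.23 and an overlap on its other probe set. Ror1, a receptor tyrosine kinase that binds Wnt5a, was at −0.41 ± 0.30 and the receptor Fzd5 at 0.37 ± 0.25. On their brightest probe sets the coreceptors bound by Dkk1 and Dkk2 overlapped, with Lrp5 at −0.12 ± 0.30 and Lrp6 at 0.24 ± 0.25. A further probe set of Lrp6 gave 0.32 and was higher on both RA arrays, with no overlap. Their partner Kremen1, a Dkk receptor, overlapped at 0.14 ± 0.25.

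The R-spondins, secreted proteins that strengthen Wnt signals, were all above the filter. Rspo2 read 61.4 and 65.0 with vehicle and 47.1 and 17.0 with RA, 2.01-fold lower on average (−1.01 ± 0.42; limma, adjusted p = 1.0 over all probe sets). Both RA arrays were below the vehicle arrays, but the size came mostly from RA replicate 2, and without it the log2 difference was −0.39. The reading of 17.0 on RA replicate 2 was near the background of the arrays. The other 3 R-spondins overlapped, between 0.17 and 0.24.

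Of 17 further antagonists of the pathway, 10 were above the filter, 2 with a positive and 8 with a negative difference. Their median of −0.0416 turned to 0.0351 with equal array medians, so the list had no settled direction. Nkd1, an antagonist inside the cell that is also induced by the pathway, read 21.5 and 34.7 against 15.3 and 18.3 (−0.58 ± 0.33). These RA readings were near the background of the arrays. The other probe sets of Nkd1 gave −0.46 and 0.25, and its relative Nkd2 stood at 0.23 ± 0.29. Notum, an enzyme that removes the lipid of Wnt proteins, was not above the filter.

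**Figure D4:**
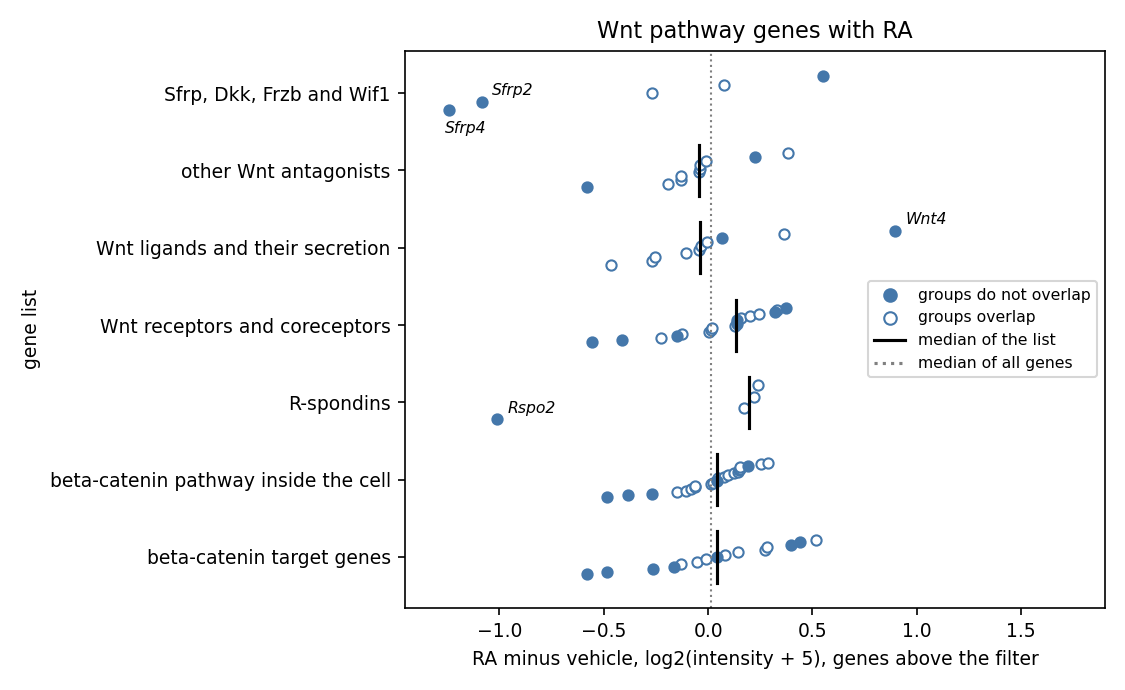
RA minus vehicle on the log2(intensity + 5) scale for genes above the filter in the family (top row) and in 6 lists of the Wnt pathway; filled points are genes whose groups do not overlap, black bars list medians and the dotted line the median of all genes (0.0147). Sfrp2, Sfrp4 and Rspo2 lie below −1 and Wnt4 at 0.90, and the medians of the 6 lists lie between −0.0416 and 0.20.

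Inside the cell, 23 of 26 measured genes of the beta-catenin pathway were above the filter, 15 positive and 8 negative, with a median of 0.042. With each gene averaged over its probe sets it was 9 positive and 14 negative, with a median of −0.0384. Beta-catenin itself, Ctnnb1, read 2132 and 2694 against 2142 and 3818, with an overlap (0.25 ± 0.33; −0.16 without RA replicate 2), and its other probe sets gave −0.29 and −0.08. Tcf7l2, a transcription factor that binds beta-catenin, read 496 and 551 with vehicle and 430 and 323 with RA (−0.48 ± 0.21). Its 3 other probe sets above the filter were also lower with no overlap, at −0.71, −0.79 and −0.98. The coactivator Bcl9 was at −0.38 ± 0.19 and the corepressor Tle4 at −0.27 ± 0.21, both with separated groups on the brightest probe set and an overlap on their others.

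The genes that beta-catenin is known to induce gave no common direction, with 8 positive and 7 negative among 15 above the filter and a median of 0.0402. The median was 0.338 without vehicle replicate 1, −0.11 without vehicle replicate 2, −0.18 without RA replicate 1 and 0.28 without RA replicate 2, with 11, 5, 4 and 10 of the 15 positive. Axin2, the most widely used readout of the pathway, read 159 and 160 with vehicle and 168 and 160 with RA, a log2 difference of 0.04 ± 0.21. This difference was far below its standard error, although the groups were separated. Lef1 read 602 and 331 against 670 and 364 (0.14 ± 0.36), with a larger gap between the numbers than between the groups, and Sp5 stood at 0.08 ± 0.36. Myc (0.44 ± 0.19) and Sox9 (0.40 ± 0.19), which many other signals also control, were higher on both RA arrays. A further probe set of Sox9 overlapped (0.21). Of the 15, 3 were separated with RA higher and 4 with RA lower, against 14.1% and 12.6% of all genes above the filter. The 4 lower ones were Nkd1 (−0.58), Tcf7l2 (−0.48), Fgf18 (−0.26) and Cd44 (−0.17).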

How the data were processed

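Each sample was read on 1 Affymetrix Mouse Genome 430 2.0 array after amplification of 75 ng of total RNA, and images were quantified with GCOS, per the labels. The deposited values are linear intensities, 1 for each array and probe set; the probe summary and the scaling used are not given in the sources used here. Amplified cDNA from little RNA is rich in 3' ends, so probe sets that lie far upstream may read low. Groups and numbers came from the sample labels.

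After 64 control probe sets were left out, a pseudocount of 5 (the rounded 20th percentile) was added before the log2, which understates folds of dim genes. Probe sets whose mean reached the 40th percentile of such means were kept. The two-sided comparison of RA and vehicle used limma 3.58.1 in R 4.3.3 (lmFit, eBayes with trend), adjusted by Benjamini-Hochberg over 27022 probe sets, with 2 residual degrees of freedom; the fit was checked on simulated data. Symbols of the platform annotation were updated through Entrez IDs (34741 probe sets matched), and genes were read from the brightest probe set naming them alone. The number of arrays limits the precision. The members and lists were chosen with earlier results of these data known. Named genes were the 9 members, 3 RA targets, 11 pathway genes whatever their values, the 3 separated genes of largest difference per list, the first 2 markers above the filter per cell type and the 5 closest profiles; others were chosen after their values were seen. A planned description of protein sequences was not made. Figures were drawn with matplotlib 3.10.9.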

Additional observations from a re-analysis of the deposited data

How the results depend on the processing

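limma called 0 probe sets at an adjusted p of 0.05, and 0 pathway genes, and this was the same with quantile, equal-median and cyclic loess scaling, a pseudocount of 1 or 20, no filter or the 60th percentile, no intensity trend, and without probe sets of shared or mixed type. With 1 array left out the count over all probe sets ran from 0 to 152. The replicate number may not pair the samples, since the labels do not say what it stands for: with the replicate number as a block, 543 probe sets passed, 221 higher and 322 lower, and 2 pathway genes, Wnt4 (limma, adjusted p = 0.0227) and Rspo2 (limma, adjusted p = 0.00793). The difference between the arrays numbered 1 and 2 in the vehicle group correlated across probe sets at 0.526 with that in the RA group. The gap between Sfrp2 with Sfrp4 and the other members ran from −1.98 to −0.84 with 1 array left out, and from −1.36 to −1.10 under the other settings. Sfrp2 and Sfrp4 were lower, and Dkk3 higher, under each of 14 alternatives. The filter, trend, block and probe set type settings leave these differences unchanged by design, so only the other settings could have moved them. Sfrp1 and Frzb turned on their brightest probe sets only with an array left out.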

Other observations

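Some members differed more by the number on the label than by treatment. The brightest Sfrp1 probe set read 576 on vehicle replicate 2 and 485 on RA replicate 2, against 345 and 281 on the arrays numbered 1. Frzb ran the other way, with 52.2 and 53.0 on the arrays numbered 2 against 83.5 and 92.0. The mast cell protease gene Cpa3 followed the direction of Sfrp1, at 1073 and 949 against 393 and 267, and the transcription factor gene Lef1 that of Frzb, at 331 and 364 against 602 and 670. Sfrp2 fitted neither pattern, since it was high on vehicle replicate 2 and lowest on RA replicate 2. These values were not tested, and what the number stands for is not given in the labels.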
